A study of Mus musculus with 2 samples.

Results

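Cluster 4 is one of the 12 clusters into which the depositors sorted single natural killer (NK) cells of mice, and it was a splenic population with a high level of genes of mature NK cells. Its members are the cells with that cluster number to which the deposited hashtag classification gives a single population of origin, called singlets here. There were 960 of them among 7479 singlets in all, and the other 6519 singlets are the set against which they are described. The mice were C57BL/6, 12 weeks old, and carried subcutaneous MC38 tumours, a transplanted mouse colon carcinoma line, under either a cyclic fasting diet or food ad libitum. The hashtag list names refed, fasted and ad libitum NK cells of spleen, bone marrow and tumour, and NK cells of a naive spleen. Cells were sorted as lineage-negative, NK1.1-positive and CD49b-positive, mixed and run on 1 lane of a droplet instrument. How many mice a population held, when in the cycle fasted and refed mice were taken and what naive means is unknown from the labels.

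NK cells are innate lymphocytes that kill infected or transformed cells with granules of perforin and granzymes and that secrete interferon gamma and chemokines. In mice they mature in the bone marrow and enter the spleen and blood, where they lose CD27 and gain CD11b, KLRG1, CX3CR1 and Ly6C. The transcription factors T-bet and ZEB2 drive the last steps of that passage, and the receptor S1PR5 carries mature cells out of the marrow. Fasting raises circulating glucocorticoids and fatty acids and lowers insulin signalling, and genes under the control of the glucocorticoid receptor, of FOXO factors and of fatty acid sensors are the known readouts of that state.

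Each population was 1 sample with 1 hashtag, so no difference between populations could be tested, and no p-value is given. Levels are counts of unique molecular identifiers (UMIs, each 1 captured transcript) summed over the cells of a group and scaled to 1000000 UMIs of that group, a unit abbreviated CPM. Differences are log2 ratios of CPM + 5, a scale on which the change of genes at low level is understated. Intervals are 95% intervals of counting error only and hold nothing of the spread between mice.

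Of the 960 cells, 939 (97.8%) came from spleen, 11 from bone marrow and 10 from tumours. In spleen, cluster 4 held 215 of 1476 refed cells (14.6%, exact binomial interval 12.8 to 16.5), 200 of 1391 fasted cells (14.4%, 12.6 to 16.3), 390 of 1804 ad libitum cells (21.6%, 19.7 to 23.6) and 134 of 818 naive cells (16.4%, 13.9 to 19.1). Outside the spleen it held 0 of 95 refed, 9 of 801 fasted and 1 of 46 ad libitum tumour cells. In bone marrow it held 0 of 337 refed, 1 of 136 fasted and 10 of 575 ad libitum cells. A count of 0, taken as fewer than 3 counts, allows a share of up to 3.16% of the refed tumour cells and 0.890% of the refed marrow cells, and the exact binomial intervals reach 3.81% and 1.09%. These shares say where the cells came from, and no diet comparison was drawn from them, because genes that set the cluster apart, Cx3cr1 among them, also differed with diet within it. Comparisons of tissues, and of diets within bone marrow and tumour, could not be made, since each needed at least 25 cells of cluster 4 on both sides.

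The cells carried markers of NK cells, as did the other singlets, which were sorted in the same way. All 8 NK markers were present, at a summed 24711 CPM in cluster 4 and 13904 CPM in the other singlets. Most of each sum was the granzyme gene Gzma. It took 10913 CPM in the other singlets, and 20532 of 24914 CPM in the spleen cells of cluster 4. Every one of the 960 cells had at least 2 UMIs of the 8 markers, as had 99.5% of the other singlets. Markers of other cell types summed to 30.6 CPM in cluster 4 and 128 CPM in the other singlets for T cells, 18.8 and 424 CPM for monocytes or macrophages, 40.6 and 563 CPM for neutrophils, and 2.83 and 2.22 CPM for B cells. Within spleen the gap was smaller for monocytes or macrophages, at 19.1 CPM in cluster 4 and 41.7 CPM in the other singlets, and neutrophil markers were slightly higher in cluster 4, at 41.2 and 36.4 CPM. Of the S100a9 UMIs of all other singlets, 55.9% were in 1 cell. Cd8a and Cd8b1 were at 0 among the T cell markers, Ms4a1 among the B cell markers, and Xcr1, Siglech and Clec9a among the dendritic cell markers. Markers of type 1 innate lymphoid cells, relatives of NK cells that stay in tissues, summed to 27.0 CPM in cluster 4 and 58.2 CPM in the other singlets. Markers of type 2 innate lymphoid cells were higher, at 83.0 and 65.7 CPM, and most of that was Gata3, which NK cells express as well, at 71.2 CPM in cluster 4 and 63.0 CPM in the other singlets of the spleen. A total of 60 cells (6.25%) carried 2 or more UMIs of markers of T cells, B cells, monocytes or macrophages, neutrophils and dendritic cells, summed. Counted apart from these, 59 cells carried 2 or more UMIs of the type 2 markers and 14 of the type 1 markers. Doublets made up 318 of the 1278 classified barcodes of cluster 4 (24.9%) and 44.8% of those of the other clusters. The share was alike in cluster 3 (25.9%) and cluster 5 (22.6%), and it was 34.4% in cluster 1 and 80.3% in cluster 0.

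The cells were shallower than the rest, with a median of 3563 UMIs (range 690 to 27384) in cluster 4 and 4643 in the other singlets, and with 1478 and 1670 genes per cell. Their transcripts were also differently made up. Ribosomal protein genes took a median of 18.0% of the UMIs of a cell in cluster 4 and 23.6% in the other singlets, and the nuclear non-coding RNA Malat1 took 4.63% and 2.43%. Mitochondrial genes took 2.37% and 2.93%. This make-up was not particular to cluster 4. Ribosomal protein shares were lower in clusters 6 and 9, at 11.9% and 9.79%, and near in cluster 5, at 20.1%. Malat1 took 8.93% in cluster 9, and mitochondrial genes took 2.17% in cluster 0. Over 4232 genes, the clusters with the most similar summed profile were cluster 3 (Pearson r = 0.986), cluster 1 (0.985) and cluster 5 (0.984), which were splenic as well, and cluster 2 came next at 0.954. The part of depth and RNA make-up in the gene differences below was not tested.

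The genes that set cluster 4 apart from all other singlets are a description, because the clusters were made from the same genes. Of 2961 genes at 50 CPM or more and 20 UMIs on the higher side, 22 (0.743%) were at least 2-fold higher in cluster 4 and 49 (1.65%) at least 2-fold lower. Genes of myeloid cells and several granzyme genes led the lower side, among them the lysozyme gene Lyz2 at 4.88 CPM in cluster 4 and 247 CPM in the other singlets (−4.67) and Gzmc at 216 and 2225 CPM (−3.34). Neither direction held throughout. Without the cells that carried 2 or more UMIs of other types, a choice that used Lyz2 itself, the Lyz2 ratio was 0.05, and S100a8, S100a9 and Camp also changed sign. Against the 3 nearest clusters alone the Gzmc ratio was 0.05. Of the Gzmc UMIs of cluster 4, 35.2% were in 1 cell. Because nearly all of cluster 4 was from spleen, a comparison with the other spleen singlets alone was added after the data had been seen, and there 7 of 2892 genes (0.242%) were at least 2-fold higher and 9 (0.311%) at least 2-fold lower. Over all 5509 genes at 20 CPM or more the median log2 ratio in spleen was 0.12, with 71.2% above 0, and the TMM scaling shift was −0.13.

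Kcnj8, which encodes the pore subunit Kir6.1 of ATP-sensitive potassium channels (6:142564837-142571614, minus strand, GENCODE M21 on GRCm38), had the highest ratio. It stood at 151 CPM in cluster 4 and 42.7 CPM in the other spleen singlets, a log2 ratio of 1.71 (1.57 to 1.85). Within cluster 4 its level was 151 CPM in refed, 151 CPM in fasted, 156 CPM in ad libitum and 136 CPM in naive spleen cells. In the other singlets of the same populations it was 31.9, 51.6, 48.3 and 38.8 CPM. All 4 populations of cluster 4 thus lay above all 4 of the other singlets, and the log2 ratio within a population lay between 1.46 in fasted and 2.08 in refed cells. Kcnj8 was named for its ratio in these same cells, so the lack of overlap describes the cluster and is no separate support. The share of all genes without overlap was not computed. Across the 12 clusters, cluster 4 had the highest Kcnj8 level at 148 CPM, followed by cluster 5 at 88.9 CPM.

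Ly6c2, the Ly6C antigen of late NK cells (15:75108158-75111970, minus strand), stood at 1278 CPM in cluster 4 and 469 CPM in the other spleen singlets, a log2 ratio of 1.44 (1.39 to 1.49). Its levels in refed, fasted, ad libitum and naive cells of cluster 4 were 1293, 1207, 1349 and 1132 CPM, against 432, 583, 475 and 365 CPM in the other singlets. Again the 2 sets did not overlap, in a gene that was also named for its ratio in these cells. Zeb2, the repressor that completes NK maturation, stood at 669 CPM in cluster 4 and 357 CPM in the rest, a log2 ratio of 0.90 (0.83 to 0.96). Its level was between 600 and 718 CPM in the 4 populations of cluster 4 and between 321 and 392 CPM in those of the other singlets.

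Other genes of late NK cells were higher too. In the mature NK list, whose highest ratio, 1.71, is that of Kcnj8, 13 of 14 measured members were above 0. The median was 0.74, against 0.12 over all genes, of which 71.2% were above 0. The list was written with earlier results of these data known, so its counts describe the cluster and are no separate support. Cx3cr1, the fractalkine receptor of circulating NK cells, was at 82.1 CPM in cluster 4 and 34.8 CPM in the other spleen singlets (1.13, 0.95 to 1.31). Klrg1, an inhibitory receptor for cadherins, was at 208 and 121 CPM (0.76), S1pr5 at 214 and 127 CPM (0.73) and Itgam, which encodes CD11b, at 205 and 138 CPM (0.55). Of the 12 clusters, cluster 4 had the highest level of Cx3cr1, Klrg1 and S1pr5, and Itgam was higher in cluster 9 alone, at 265 CPM against 201 CPM in all cluster 4 cells. The margin over the next cluster was small for Cx3cr1, at 79.9 CPM in cluster 4 and 73.0 CPM in cluster 3, and for Klrg1, at 205 and 195 CPM. The exception in the list was the integrin gene Itgax, at 60.9 CPM in cluster 4 and 93.6 CPM in the rest (−0.58).

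Genes of immature NK cells lay on the other side, with 11 of 12 measured members of that list below 0 and a median of −1.10. That list, too, was written with earlier results of these data known, and its lowest ratio is that of Ltb. Ltb, the lymphotoxin beta chain, was at 36.9 CPM in cluster 4 and 138 CPM in the other spleen singlets, a log2 ratio of −1.77 (−1.99 to −1.55). In refed, fasted, ad libitum and naive cells it was at 42.7, 19.7, 27.3 and 76.1 CPM in cluster 4 and at 132, 146, 127 and 162 CPM in the other singlets. The 2 sets did not overlap, and Ltb too was named for its ratio in these cells. Thy1, an antigen of young and activated NK cells, was at 44.4 and 116 CPM (−1.29), the receptor gene Cd160 at 54.7 and 164 CPM (−1.50) and Emb, which encodes embigin, at 27.1 and 96.1 CPM (−1.66). Cd27, the marker used in the mouse to divide NK cells into stages, was at 46.8 CPM in cluster 4 and 109 CPM in the rest (−1.14, −1.34 to −0.94). Cluster 4 had the lowest Ltb, Emb and Thy1 level of all 12 clusters, while Cd27 was lower in cluster 11, at 47.3 CPM in all cluster 4 cells and 22.2 CPM in cluster 11.

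**Figure D1:**
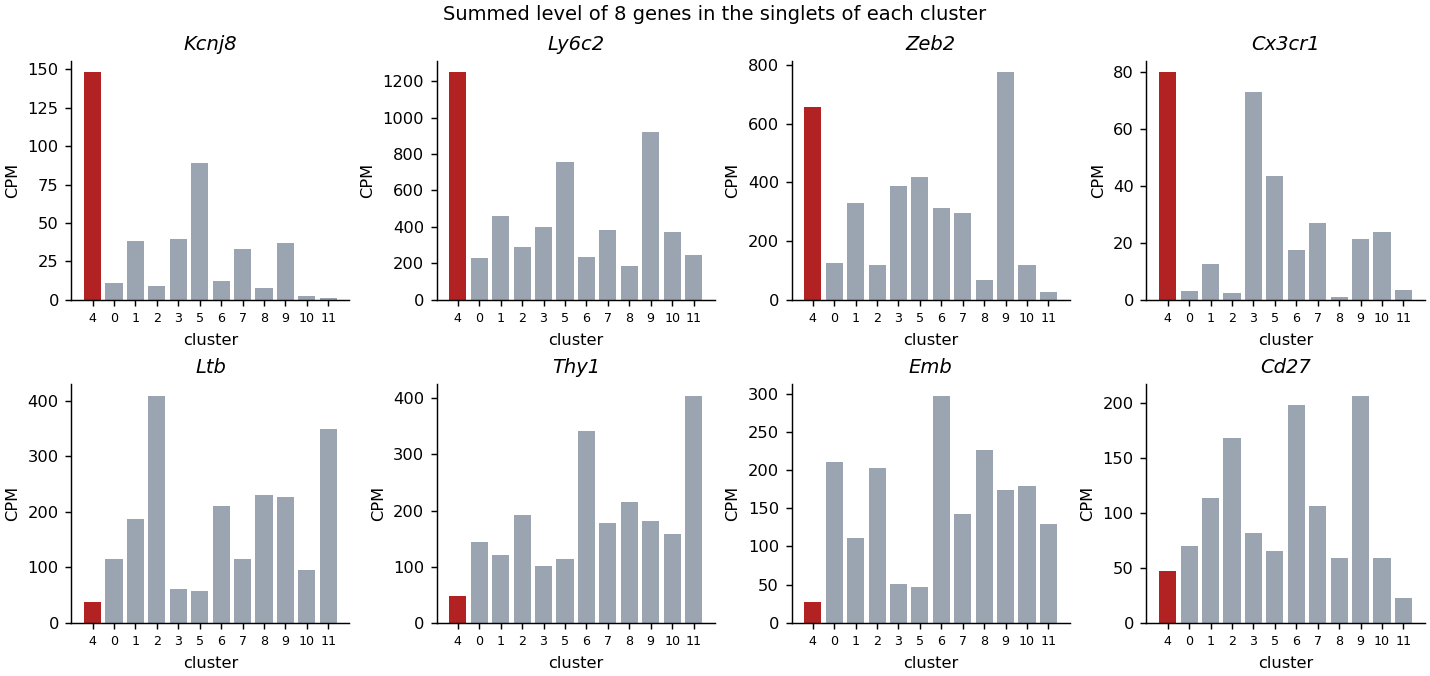
Summed level in CPM (vertical axes, linear from 0) of 4 genes of mature NK cells and 4 genes of immature or activated NK cells in the singlets of each cluster, with cluster 4 in red on the left. Kcnj8 reaches 148 CPM in cluster 4 and Ltb, Thy1 and Emb are lowest there, while Zeb2 is higher in cluster 9.

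The transcription factors given here differed by less than Zeb2 (0.90), apart from Tcf7. Tbx21, which encodes T-bet, was at 168 CPM in cluster 4 and 134 CPM in the other spleen singlets (0.31), and Eomes, its partner in earlier cells, was at 223 and 239 CPM (−0.10). Tcf7, the factor TCF1 of early NK cells, was at 21.8 and 51.1 CPM (−1.07, −1.34 to −0.80). Klf2, which keeps lymphocytes quiescent and in circulation, was at 1482 and 988 CPM (0.58). In single populations Tbx21 reached from 133 to 200 CPM in cluster 4, which overlaps the 128 to 143 CPM of the other singlets.

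Transcripts of the killing granules were moderately higher. Gzmb, which encodes granzyme B, was at 1532 CPM in cluster 4 and 902 CPM in the other spleen singlets (0.76), Prf1, the perforin gene, at 483 and 306 CPM (0.65) and Gzma at 20532 and 14440 CPM (0.51). Each of these genes was higher in cluster 4 within each of the 4 spleen populations. Of all genes, 71.2% were above 0 over the 4 populations together, and the share above 0 in each was not computed. Gzmm was at 10.1 and 29.5 CPM (−1.19), and over 12 measured members of the cytotoxic effector list 8 were above 0 with a median of 0.18, close to the 0.12 of all genes. Among the receptors of the Ly49 family, Klra9 stood apart at 902 and 484 CPM (0.89), although genes of this family are near-identical and reads could be split among them. Klra4 was at 1250 and 1167 CPM (0.10), Ncr1, which encodes the NK receptor NKp46, at 1352 and 1157 CPM (0.22), and Klrk1, which encodes NKG2D, at 1235 and 1149 CPM (0.10). The ratios of Klra4 and Klrk1 are smaller than the shift of TMM scaling, so that their direction depends on the scaling.

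Genes of recent stimulation were slightly higher, with 14 of 15 measured immediate early genes above 0 and a median of 0.44. Over all genes the median was 0.12, with 71.2% above 0. Jun was at 802 CPM in cluster 4 and 578 CPM in the rest (0.47) and Junb at 1141 and 894 CPM (0.35). Among chemokines, Ccl3 was at 991 and 705 CPM (0.49), Ccl4 at 1128 and 817 CPM (0.46) and Xcl1 at 292 and 491 CPM (−0.74). The chemoattractant gene Cxcl10 was at 69.6 and 23.8 CPM (1.37), but 1 cell held 20.2% of its UMIs in cluster 4. Over the 4 spleen populations together, all 8 measured genes of dividing cells were below 0, with a median of −0.66. Mki67, the proliferation antigen, was at 19.1 CPM in cluster 4 and 47.3 CPM in the other spleen singlets (−1.11). This did not hold in each population or against each cluster. In refed spleen the ratio was 0.09 for Mki67, 0.48 for Birc5 and 0.81 for Ube2c, and in ad libitum spleen it was −2.40, −1.56 and −1.33. Mki67 had ratios of 0.24 against cluster 1 and 0.42 against cluster 3, and of −1.16 against cluster 5.

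Transcripts kept in the nucleus were higher. Malat1 was at 45316 CPM in cluster 4 and 25268 CPM in the other spleen singlets (0.84, 0.83 to 0.85), and Neat1, the scaffold RNA of paraspeckles, was at 403 and 233 CPM (0.78). Malat1 was at 45633, 47894, 43943 and 45798 CPM in refed, fasted, ad libitum and naive cells of cluster 4, and at 24482, 26660, 24375 and 26768 CPM in the other singlets. The cells of cluster 4 also had the lower UMI count and the lower ribosomal protein share given above. The part of these in the gene differences was not tested.

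Against its 3 nearest clusters, each taken in spleen, cluster 4 differed by less. Of the 12 genes with the highest ratios against the other spleen singlets, all 12 were above 0 against each of the 3, and of the 12 lowest 9 were below 0 against each. The exceptions were Tcf7, at 0.02 and 0.00 against clusters 3 and 5, Top2a, at 0.07 and 0.15 against clusters 1 and 3, and Gzmc, at 0.30 and 0.07 against clusters 3 and 5. Clusters 1, 3 and 5 gave 1154, 1087 and 759 of the 4550 other spleen singlets by which these genes were picked. The counts thus follow in large part from that choice. Over all genes, 71.2% were above 0 against the other spleen singlets. Shares of all genes above 0, or at the size given below, against each of the 3 clusters were not computed. Kcnj8 had log2 ratios of 1.67 against cluster 1, 1.74 against cluster 3 and 0.67 against cluster 5. For Ly6c2 they were 1.30, 1.56 and 0.69, and for Zeb2 0.85, 0.73 and 0.62. Cx3cr1 and Klrg1 had ratios of 2.16 and 1.36 against cluster 1, but of 0.08 and 0.04 against cluster 3. A ratio of at least 0.5 against each of the 3, a size chosen after the values were seen, was found for 8 of the 12 highest genes, Kcnj8, Ly6c2, Cxcl10, Entpd1, Zeb2, Sfi1, Malat1 and Cdk14. Of these Entpd1, which encodes the ectonucleotidase CD39, was at 1.14, 0.74 and 0.56 and Malat1 at 0.54, 1.15 and 0.87. On the lower side it was found for 4 of 12, Emb, Cd160, Thy1 and Slc25a4. Cd160 was at −1.54, −0.94 and −0.91 and Thy1 at −1.06, −1.09 and −1.20.

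**Figure D2:**
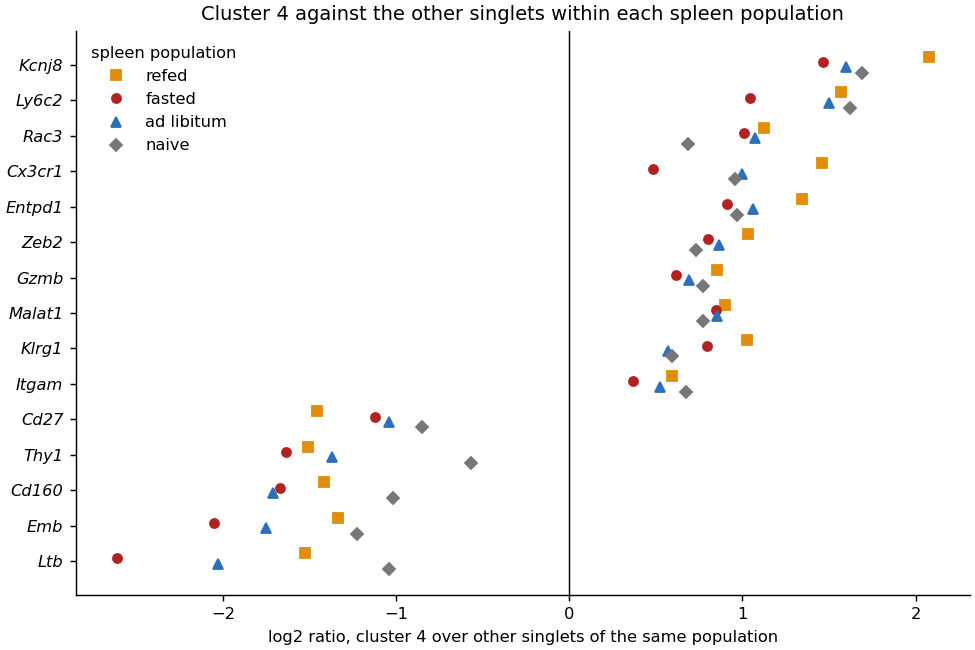
Log2 ratio of CPM + 5 of cluster 4 over the other singlets of the same spleen population (horizontal axis) for 15 genes, with 1 symbol per population. Kcnj8 lies between 1.46 and 2.08 in the 4 populations and Ltb, Emb, Cd160, Thy1 and Cd27 lie below 0 in each.

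The comparison of fasted with ad libitum spleen addresses how these mature cells differ with the diet. In cluster 4, 10 of 3011 genes (0.332%) were at least 2-fold higher in fasted cells and 10 (0.332%) at least 2-fold lower, with 200 fasted cells carrying 661162 UMIs and 390 ad libitum cells carrying 1646644. The median ratio of all genes was −0.00, with 49.8% above 0. Among the other spleen singlets 5 of 2744 genes (0.182%) were at least 2-fold higher and 7 (0.255%) at least 2-fold lower. The fasted cells of cluster 4 had a median of 3162 UMIs and the ad libitum cells 3805. Their monocyte or macrophage markers summed to 40.8 CPM in fasted and 15.2 CPM in ad libitum cells, their neutrophil markers to 59.0 and 40.7 CPM and their erythroid markers to 43.9 and 5.47 CPM. The part of these in the differences was not tested.

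Pik3ip1, an inhibitor of PI3 kinase signalling (11:3330401-3342971, plus strand), differed most. Its level in cluster 4 was 16.9 CPM in refed, 77.1 CPM in fasted, 15.2 CPM in ad libitum and 24.8 CPM in naive cells, and in the other singlets it was 18.6, 78.9, 17.9 and 21.3 CPM. The fasted cells were highest in both sets. Pik3ip1 was named for its ratio in these cells of cluster 4, so its order there is no separate support. The log2 ratio of fasted over ad libitum cells was 2.02 (1.42 to 2.61) in cluster 4 and 1.87 in the other singlets. Cpt1a, which encodes the rate-limiting carrier step of fatty acid oxidation (19:3322334-3385733, plus strand), was at 25.8, 52.9, 15.8 and 21.2 CPM in refed, fasted, ad libitum and naive cells of cluster 4. Its ratio of fasted over ad libitum was 1.48 (0.83 to 2.11) in cluster 4 and 1.35 in the other singlets. With every cell thinned to 1500 UMIs, the Cpt1a ratio in cluster 4 was 0.83.

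Glucocorticoid targets were higher in the fasted cells, with 8 of 10 measured members above 0 and a median of 0.68 in cluster 4, and with 10 of 11 above 0 and a median of 0.93 in the other singlets. Tsc22d3, which encodes the glucocorticoid-induced leucine zipper GILZ (X:140539528-140600659, minus strand), was at 111, 296, 123 and 103 CPM in refed, fasted, ad libitum and naive cells of cluster 4, a fasted over ad libitum ratio of 1.23 (0.95 to 1.51). Fkbp5, a chaperone that dampens the glucocorticoid receptor, was at 44.9, 84.7, 33.4 and 38.9 CPM, a ratio of 1.22 (0.71 to 1.73) that was 0.39 with every cell thinned to 1500 UMIs. Txnip, an inhibitor of glucose uptake (3:96557957-96561883, plus strand), was at 334, 641, 318 and 368 CPM, a ratio of 1.00 (0.82 to 1.19). For all 3 genes the interval of the fasted population lay above those of the other 3 populations of cluster 4. The 3 genes were named for their ratio in these same cells, so this is no separate support. The share of all genes with such intervals was not computed. In the other singlets the ratios were 1.36 for Tsc22d3, 1.04 for Fkbp5 and 1.26 for Txnip. Sgk1, a kinase gene of the same list, went against it, at 37.8 CPM in fasted and 54.0 CPM in ad libitum cells of cluster 4 (−0.46). The list of FOXO and KLF2 quiescence genes had a median of 0.01 in cluster 4, with 7 of 13 measured members above 0. In the other singlets its median was 0.24, with 12 of 15 above 0. Its highest ratio in cluster 4, 2.02, was that of Pik3ip1, which was also the highest of the glucocorticoid list.

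Of the 10 genes with the highest fasted over ad libitum ratios in cluster 4, 9 had promoters that were searched in the RefSeq table (build GRCm38.p6), 13 promoters in all. The look-up for these genes skipped a chromosome. No promoter of Arhgap26, the gene left over, was searched, and whether the table holds one is not given. The 250 bases before the start site of Txnip and of Tsc22d3 are shown because they hold letters of the motifs searched for FOXO factors and the glucocorticoid receptor. Each is read along its gene, which is the plus strand for Txnip and the minus strand for Tsc22d3. Capitals mark the FOXO letters GTAAACA (reverse TGTTTAC) in Txnip, 121 bases before the start, and TGTTCT, the reverse of the receptor half-site AGAACA, in Tsc22d3, 185 bases before the start.
Txnip, chr3:96557707-96557956: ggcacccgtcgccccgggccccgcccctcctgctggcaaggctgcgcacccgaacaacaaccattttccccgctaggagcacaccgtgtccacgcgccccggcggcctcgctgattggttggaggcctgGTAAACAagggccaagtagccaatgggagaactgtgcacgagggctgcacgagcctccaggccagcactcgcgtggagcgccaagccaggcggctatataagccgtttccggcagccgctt
Tsc22d3, chrX:140600523-140600772: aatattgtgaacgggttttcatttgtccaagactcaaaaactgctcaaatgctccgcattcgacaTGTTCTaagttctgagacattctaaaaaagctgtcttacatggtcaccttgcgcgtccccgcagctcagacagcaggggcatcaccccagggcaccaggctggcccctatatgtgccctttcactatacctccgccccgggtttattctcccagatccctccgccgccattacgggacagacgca
Both strands were searched. The FOXO letters were present in 3.17% and the half-site in 16.1% of all 32851 promoters of the same length, a set that kept the skipped chromosome. The other 2 Tsc22d3 promoters held neither. The E-box CACGTG, present in 6.02% of promoters, stood in those of Rab27a, Prr3, Fkbp5 and Abca1, and Abca1 also held the half-site. Pik3ip1, Cpt1a and Klhl6 held none of the 3 motifs. A match is a run of letters and no evidence of binding.

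Other genes higher in the fasted cells were Rab27a, whose GTPase docks cytotoxic granules at the membrane, at 78.6 CPM in fasted and 27.3 CPM in ad libitum cells of cluster 4 (1.37), Klhl6, an adaptor of ubiquitin ligases, at 247 and 101 CPM (1.25), and Abca1, the cholesterol exporter, at 62.0 and 27.3 CPM (1.05). The other singlets gave 1.26 for Rab27a, 0.91 for Klhl6 and 0.78 for Abca1. Prr3 was at 51.4 and 17.0 CPM in cluster 4, a ratio of 1.36 (0.71 to 1.99), and had a ratio of 0.06 (−0.25 to 0.37) in the other singlets, a difference that was not tested. Over the fatty acid oxidation list, Cpt1a included, the median in cluster 4 was 0.10 with 8 of 13 members above 0, and Slc25a20, the carnitine carrier, was at 30.2 and 17.0 CPM (0.68).

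Cx3cr1 (9:119901616-120069879, minus strand) had the lowest ratio in fasted cells of cluster 4. It was at 70.8 CPM in refed, 36.3 CPM in fasted, 112 CPM in ad libitum and 67.2 CPM in naive cells, and at 22.6, 24.5, 53.5 and 32.2 CPM in the other singlets. The ad libitum cells were highest in both sets. The fasted over ad libitum ratio was −1.50 (−2.09 to −0.94) in cluster 4 and −0.99 in the other singlets. The other surface and effector genes of the mature stage differed less, with Klrg1 at 197 CPM in fasted and 226 CPM in ad libitum cells (−0.20), Zeb2 at 600 and 718 CPM (−0.26), Kcnj8 at 151 and 156 CPM (−0.04) and Gzmb at 1245 and 1703 CPM (−0.45). Over the mature NK list 3 of 14 members were above 0, with a median of −0.14.

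Chemokine and cytokine transcripts were lower in the fasted cells of cluster 4, with 6 of 7 measured members below 0 and a median of −0.86, while in the other singlets 4 of 7 were below 0 with a median of −0.24. The median in cluster 4 was −0.47 with every cell thinned to 1500 UMIs, again with 6 of 7 below 0. No thinned value was computed for the other singlets, and the gap between the sets was not tested. Ccl3, which draws monocytes and lymphocytes, was at 753, 711, 1297 and 801 CPM in refed, fasted, ad libitum and naive cells, a fasted over ad libitum ratio of −0.86. Ccl4, its neighbour in the same gene cluster, was at 971, 705, 1388 and 1114 CPM (−0.97). Both genes were highest in the ad libitum cells, and refed and naive cells lay near or between the fasted cells and these. Ifng, the interferon gamma gene, was at 201, 228, 326 and 218 CPM (−0.50). Xcl1, a chemokine sensed by cross-presenting dendritic cells, was at 306, 141, 306 and 403 CPM (−1.09, −1.42 to −0.78), so here the fasted cells stood below all others, and the other singlets gave −0.97. With every cell thinned to 1500 UMIs, the ratio of Xcl1 was −0.47. Ccl5 went the other way, at 28492 CPM in fasted and 24198 CPM in ad libitum cells (0.24).

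Genes of recent stimulation followed the chemokines in cluster 4. Nr4a1, an orphan receptor induced by receptor signalling, was at 46.1, 22.7, 61.9 and 35.4 CPM in refed, fasted, ad libitum and naive cells, a fasted over ad libitum ratio of −1.27 (−1.97 to −0.59) in cluster 4 and −0.18 in the other singlets. Of the immediate early genes, 13 of 16 were below 0 in cluster 4 with a median of −0.26, against 4 of 15 and a median of 0.19 in the other singlets. Fosb was an exception, at 207 CPM in fasted and 146 CPM in ad libitum cells (0.49). Of the NF-kB response genes, 10 of 11 were below 0 in cluster 4 with a median of −0.38, and 6 of 11 with a median of −0.07 in the other singlets. Nfkbia, the inhibitor of NF-kB, was at 371 and 463 CPM in cluster 4 (−0.32). None of these gaps between cluster 4 and the other singlets was tested. With every cell thinned to 1500 UMIs, the ratio of Nr4a1 in cluster 4 was −0.41.

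Structural genes were mostly lower by small amounts. Of 19 actin and cytoskeleton genes 18 were below 0 in fasted cells of cluster 4, with a median of −0.27, and 17 of 19 in the other singlets, with a median of −0.22. Actb was at 6948 CPM in fasted and 8713 CPM in ad libitum cells (−0.33), Actg1 at 1705 and 2173 CPM (−0.35) and Pfn1, which encodes profilin, at 2300 and 2873 CPM (−0.32). S100a4, a calcium-binding protein of motile cells, was the 1 member at least 2-fold lower, at 33.3 CPM in fasted and 71.7 CPM in ad libitum cells. Oxidative phosphorylation genes were below 0 in 25 of 29 cases in cluster 4 with a median of −0.15, and in 27 of 29 in the other singlets with a median of −0.24. Isg15, the interferon-induced ubiquitin-like protein, was at 40.8 CPM in fasted and 92.9 CPM in ad libitum cells of cluster 4 (−1.09) and had a ratio of −0.67 in the other singlets. In cluster 4 its ratio was −0.33 with every cell thinned to 1500 UMIs, −0.40 without cells of other types and −0.41 without cells above 8000 UMIs.

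**Figure D3:**
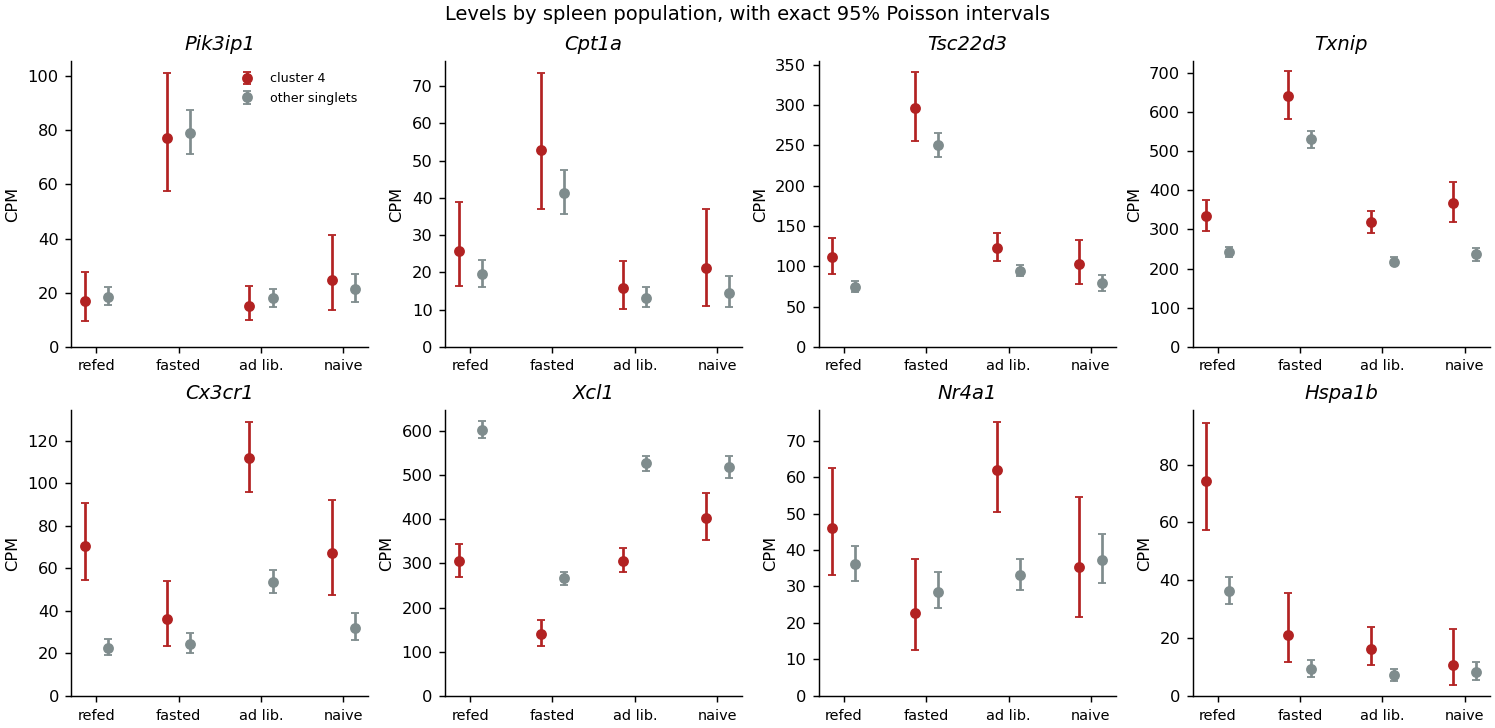
Level in CPM (vertical axes, from 0) of 8 genes in the 4 spleen populations for cluster 4 (red) and all other singlets (grey), with exact 95% Poisson intervals of counting error. Pik3ip1 reaches 77.1 CPM in fasted cells of cluster 4 and 78.9 CPM in the other fasted singlets, and Hspa1b reaches 74.2 CPM in refed cells of cluster 4.

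Refed cells were set against ad libitum and against fasted cells. These comparisons share their populations with each other and with the one above, so that they are not independent. Against ad libitum, 8 of 3005 genes (0.266%) were at least 2-fold higher in refed cells of cluster 4 and 3 (0.0998%) at least 2-fold lower. Against fasted cells, 15 of 3070 genes (0.489%) were higher and 14 (0.456%) lower. Over all genes, 51.0% were above 0 against ad libitum and 51.0% against fasted cells. The 215 refed cells carried 890049 UMIs, with a median of 3544 per cell.

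Of the genes that were high in fasted cells, Pik3ip1, Tsc22d3 and Txnip lay near their ad libitum level in refed cells, while Cpt1a, at 25.8 CPM in refed, 52.9 CPM in fasted and 15.8 CPM in ad libitum cells, lay between. Against fasted cells Pik3ip1 had a log2 ratio of −1.91 (−2.62 to −1.19), Tsc22d3 of −1.37 (−1.73 to −1.03) and Txnip of −0.93. Ddit4, an inhibitor of mTORC1 that glucocorticoids and energy stress induce, was at 28.1 CPM in refed and 71.1 CPM in fasted cells of cluster 4 (−1.20, −1.85 to −0.55), and had a ratio of −1.12 in the other singlets. Of 10 glucocorticoid targets 9 were below 0, with a median of −0.67, and in the other singlets all 11 were below 0 with a median of −1.11. Cx3cr1 was at 70.8 CPM in refed and 36.3 CPM in fasted cells, and with 112 CPM in ad libitum cells it lay between these.

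Heat shock genes were higher in refed cells. All 10 were above 0 against ad libitum cells in cluster 4, with a median of 0.60 beside 0.01 over all genes, and all 10 in the other singlets, with a median of 0.52. Hspa1b, the inducible HSP70 chaperone (17:34956436-34959238, minus strand), was at 74.2, 21.2, 16.4 and 10.6 CPM in refed, fasted, ad libitum and naive cells of cluster 4, and at 36.2, 9.17, 7.07 and 8.11 CPM in the other singlets. Refed cells were the highest in both sets, and their interval in cluster 4 did not reach those of the other populations. Hspa1b was named for its ratio in these cells, and the share of all genes with such intervals was not computed. The ratio of refed over ad libitum was 1.89 (1.33 to 2.44) in cluster 4, where it was 2.85 with every cell thinned to 1500 UMIs, and 1.77 in the other singlets. Hspa1a, its near-identical neighbour with which it can share reads, was at 30.3 CPM in refed and 6.07 CPM in ad libitum cells (1.67). Other chaperone genes differed less, with Dnaja1 at 730 and 450 CPM (0.69), Hsp90ab1 at 1838 and 1383 CPM (0.41) and Hsp90aa1 at 626 and 506 CPM (0.30). Against fasted cells the median of the 10 was 0.76, with Hsp90ab1 at 1838 CPM in refed and 963 CPM in fasted cells (0.93).

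Chaperones of the secretory pathway were also higher in refed than in fasted cells, with 13 of 14 genes above 0 and a median of 0.37 in cluster 4, and 11 of 14 with a median of 0.62 in the other singlets. Calr, which encodes calreticulin, was at 381 CPM in refed and 219 CPM in fasted cells (0.78), Pdia6, a disulfide isomerase, at 166 and 103 CPM (0.67) and Hsp90b1 at 593 and 389 CPM (0.60). Actin and cytoskeleton genes were above 0 in 19 of 19 cases with a median of 0.16, and Actb was at 8388 CPM in refed and 6948 CPM in fasted cells (0.27).

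The growth genes gave a different picture. Genes for ribosome building under MYC were above 0 in 5 of 12 cases in cluster 4, with a median of −0.06, and in 14 of 15 in the other singlets, with a median of 0.38. DNA replication genes were above 0 in 4 of 8 cases with a median of 0.00 in cluster 4, and in 11 of 11 with a median of 0.53 in the other singlets. These differences between the sets were not tested.

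Genes of mitosis were an exception that rested on few cells. Against ad libitum cells, Cenpf, a kinetochore protein, was at 50.6 CPM in refed and 4.86 CPM in ad libitum cells of cluster 4 (2.49), but 1 refed cell held 68.9% of its UMIs. Without the highest cell on each side the ratio was 1.18, and without cells above 8000 UMIs it was −0.02. Ube2c, of the ubiquitin machinery of anaphase, was at 57.3 and 20.6 CPM (1.28) with 52.9% of the refed UMIs in 1 cell, Birc5, which encodes survivin, at 58.4 and 18.2 CPM (1.45) with 42.3%, and Top2a, topoisomerase II alpha, at 87.6 and 34.0 CPM (1.25) with 44.9%. The other singlets had ratios of −0.87 for Ube2c, −0.59 for Birc5 and −0.26 for Top2a. Over the dividing cell list all 11 measured members were above 0 in cluster 4, with a median of 1.29. The median was 0.85 without the highest cell of each gene, 0.47 with every cell thinned to 1500 UMIs, where 6 of 7 measured members were above 0, and 0.11 without cells above 8000 UMIs. Thinning gave 0.47 for Birc5 and −0.37 for Ube2c, and leaving out cells above 8000 UMIs gave 0.19 for Birc5, −0.45 for Ube2c and 0.02 for Top2a.

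The chemokine list was lower in refed than in ad libitum cells of cluster 4, with 6 of 7 members below 0 and a median of −0.51. Ccl3 was at 753 CPM in refed and 1297 CPM in ad libitum cells (−0.78), Ifng at 201 and 326 CPM (−0.68) and Xcl1 at 306 CPM in each (−0.00). Cxcl10 was at 13.5 and 83.2 CPM (−2.25), but 38.0% of its UMIs in ad libitum cells were in 1 cell, the ratio was −1.48 with every cell thinned to 1500 UMIs, and the other singlets gave −0.02.

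**Figure D4:**
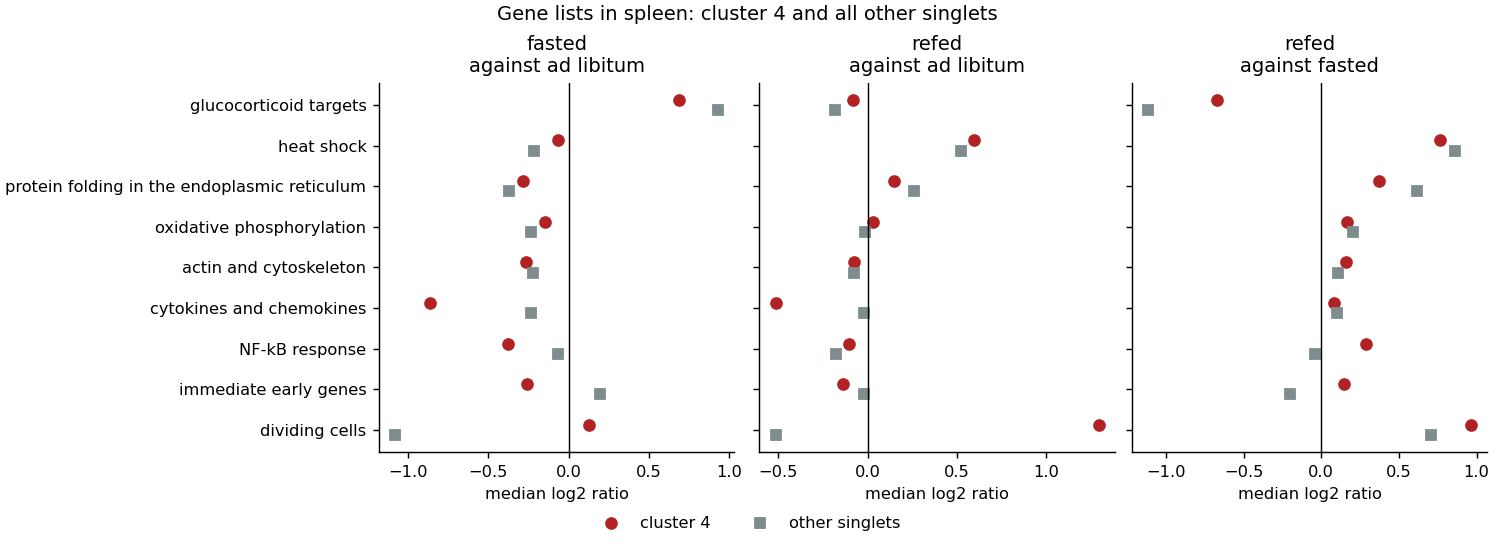
Median log2 ratio of CPM + 5 (horizontal axes) over the measured members of 9 gene lists in 3 diet comparisons, for cluster 4 (red circles) and all other spleen singlets (grey squares). Glucocorticoid targets stand at 0.68 in fasted against ad libitum cells of cluster 4 and heat shock genes at 0.60 in refed against ad libitum cells. The median of dividing cells in refed against ad libitum cells, 1.29, is 0.85 without the highest cell of each gene and 0.47 with every cell thinned to 1500 UMIs.

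Ad libitum cells were set against naive cells of cluster 4, of which 134 carried 565412 UMIs. What naive means is unknown from the labels, so the differences cannot be assigned to the tumour. Of 3032 genes, 1 (0.0330%) was at least 2-fold higher and 1 (0.0330%) at least 2-fold lower. These counts depended on the settings, and were 54 higher and 7 lower with every cell thinned to 1500 UMIs and 35 higher and 9 lower with a minimum of 20 CPM. Gadd45b, a stress-induced regulator of growth arrest and p38 signalling (10:80930073-80932204, plus strand), was at 58.4, 48.4, 64.4 and 24.8 CPM in refed, fasted, ad libitum and naive cells of cluster 4, an ad libitum over naive ratio of 1.22 (0.52 to 1.96). In the other singlets it was at 45.0, 51.2, 39.5 and 46.0 CPM, a ratio of −0.20. The naive cells of cluster 4 were the lowest of its 4 populations, on 14 UMIs in 9 cells, with 21.4% in 1 cell. Gadd45b was named for this ratio, and the difference between the sets was not tested. Ltb, the gene 2-fold lower, was at 27.3 CPM in ad libitum and 76.1 CPM in naive cells (−1.33, −1.89 to −0.75) and had a ratio of −0.34 in the other singlets. In the naive cells 1 cell held 32.6% of the Ltb UMIs, and in the ad libitum cells 28.9%. With every cell thinned to 1500 UMIs the Ltb ratio was −0.32, and that of Gadd45b 0.73, and without cells above 8000 UMIs the Ltb ratio was −0.34.

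The immature NK list was lower in ad libitum cells of cluster 4, with 9 of 11 members below 0 and a median of −0.49, while in the other singlets 9 of 13 were below 0 with a median of −0.09. Thy1 was at 41.3 CPM in ad libitum and 74.3 CPM in naive cells (−0.78) and Cd27 at 44.3 and 61.9 CPM (−0.44). Genes of the TGF-beta response were higher, with 6 of 6 measured members of 13 above 0 and a median of 0.44. In the other singlets 5 of 7 were above 0, with a median of 0.08. Over all genes in cluster 4, 47.5% were above 0 in this comparison, with a median of −0.02. Smad7, the feedback inhibitor of the pathway, was at 128 CPM in ad libitum and 72.5 CPM in naive cells (0.78), and Rgs1, a brake on chemokine receptors, at 420 and 226 CPM (0.88). Cxcr4, the receptor that holds cells in the marrow, was at 50.4 and 23 CPM (0.98, 0.25 to 1.75), with 0.44 in the other singlets. Across its 4 populations Cxcr4 was at 67.4, 87.7, 50.4 and 23 CPM in refed, fasted, ad libitum and naive cells. The naive cells were thus lowest, on 13 UMIs in 12 cells, and the fasted cells highest.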

How the data were processed

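Values are the authors' deposited UMI counts for every cell and gene. The labels' protocol names seqc, and the submitters' processing notes name mm10. Cluster numbers and the hashtag classification are the authors' as well, and no source used here says how they were made. Of 13118 barcodes, 33 had no classification and 5606 were called doublets, and both were left out. The 16800 gene columns held 16789 symbols, with repeated symbols summed, and 16277 matched GENCODE M21.

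Counts were summed over cells and scaled to CPM. Ratios are log2 of CPM + 5. Genes at 50 CPM or more and 20 UMIs on the higher side were compared, a difference being called at 2-fold. List members were measured at 20 CPM or more on 1 side. Intervals are binomial or Poisson at 95%. Depth was 3891287 UMIs in cluster 4 and 38669392 in the other singlets. The interval code was tested on simulated counts. Named genes are the 12 highest and 12 lowest of cluster 4 against other cells and the 10 highest and 10 lowest of each diet comparison, without unnamed gene models and without genes of mitochondria, ribosomal proteins, haemoglobin, antibodies and T cell receptors. To these were added up to 6 members of a list, in list order, and the NK identity genes. Members and the 27 lists were chosen with earlier results of these data known. Alternatives covered scaling, totals, depth, cells, pseudocount and filters. Tools were R 4.3.3 with edgeR 4.0.16, for TMM factors alone, and Python 3.11.15 with pandas 2.3.3, scipy 1.17.1, matplotlib 3.10.9 and numpy 2.4.6.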

Additional observations from a re-analysis of the deposited data

Results flagged for a closer look

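Over all cells, genes of dividing cells had opposite directions in cluster 4 and in the other singlets when refed was set against ad libitum spleen. The log2 ratio of Cenpf was 2.49 in cluster 4 (1.18 without the highest cell) and −0.75 in the other singlets. That of Birc5 was 1.45 (0.92) and −0.59, and that of Ube2c 1.28 (0.41) and −0.87. The median of the dividing cell list was 1.29 (0.85) and −0.52. With every cell thinned to 1500 UMIs they were 1.04 for Cenpf, 0.47 for Birc5, −0.37 for Ube2c and 0.47 for the list, and without cells above 8000 UMIs −0.02, 0.19, −0.45 and 0.11, so that the direction of Ube2c was then that of the other singlets over all cells. With 1 sample a population these differences were not tested.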

How the results depend on the processing

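Each population was 1 sample, so the values hold for these cells and depth alone. Over 128 gene results, 941 of 1224 alternative values moved within their counting interval, 261 moved further and 22 changed sign. Over 47 list medians the numbers were 359, 91 and 12 of 462. No paired analysis was possible because each population was 1 sample. No replicate could be left out.

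Counts of genes at least 2-fold apart moved by over 1.5 times as follows. For cluster 4 against all other singlets (71), totals without ribosomal protein and mitochondrial genes gave 122, the mean over cells 45, thinning to 1500 UMIs 47, a minimum of 20 CPM 136, no minimum 229, the median within populations 18 and the 3 nearest clusters 7. Against other spleen singlets (16), the mean gave 8, thinning 9, 20 CPM 28, no minimum 37 and the nearest clusters 7. For fasted against ad libitum (20), totals gave 33, thinning 55, 20 CPM 60 and no minimum 222. For refed against ad libitum (11), the mean gave 5, thinning 39, leaving out the highest cell 6, 20 CPM 39, no minimum 138 and leaving out cells above 8000 UMIs 5. For refed against fasted (29), totals gave 48, thinning 73, a pseudocount of 1 CPM 45, 20 CPM 91 and no minimum 371. For ad libitum against naive (2), TMM factors gave 4, totals 13, the mean 10, thinning 61, the highest cell left out 6, a pseudocount of 1 CPM 6, 20 CPM 44, no minimum 275, cells of other types left out 9 and cells above 8000 UMIs left out 8.

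Scaling moved the split of higher and lower genes. For cluster 4 against all other singlets it was 22 and 49, with TMM 12 and 79 and with totals 14 and 108. Against spleen singlets it was 7 and 9, with TMM 4 and 11 and with totals 4 and 15. For refed against fasted it was 15 and 14, with totals 20 and 28, and for ad libitum against naive 1 and 1, with TMM 3 and 1 and thinned 54 and 7. The share of cluster 4 among clusters 1, 3, 4 and 5 was 22.2% of refed, 20% of fasted, 28.4% of ad libitum and 22.4% of naive spleen cells.

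The values that changed sign were these, and the cause was not tested. Against all other singlets, leaving out cells of other types gave Lyz2 0.053, S100a9 0.0158, S100a8 0.36 and Camp 0.27. The median within populations gave S100a8 0.0908, Cxcl2 0.0308, Gzme 0.0124 and the interferon-induced list 0.0657. The 3 nearest clusters gave S100a9 0.0904, S100a8 0.048, Gzmc 0.05, Gzmd 0.63, Cd74 0.20, Gzme 0.15, and lists of interferon-induced genes 0.13, DNA replication 0.0757 and hypoxia 0.0653. Doublets included, cytokines and chemokines had −0.0815. Against other spleen singlets the hypoxia median was −0.0221 with TMM and −0.18 with totals. For refed against ad libitum, thinning gave Spp1 −0.0442 and Ube2c −0.37, and leaving out cells above 8000 UMIs gave Cenpf −0.0171 and Ube2c −0.45. For refed against fasted, Ube2c was −0.18 by the mean, −0.53 thinned and −0.49 without cells above 8000 UMIs, where Cenpf was −0.59 and the dividing cell median −0.0911. There the NF-kB median was −0.0728 by the mean and −0.0345 without those cells, and the TGF-beta median −0.0019 by the mean and −0.0687 thinned. For ad libitum against naive, Cxcl10 was 1.40 without cells above 8000 UMIs.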

Other observations

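Homing receptors of cluster 4 were split. Against the other spleen singlets, Cxcr3, the receptor for interferon-induced chemokines, was at 22.1 CPM in cluster 4 and 51.8 CPM in the rest (log2 ratio −1.07), Ccr2, a receptor of inflammatory homing, at 173 and 310 CPM (−0.82) and S1pr1, a lymphocyte exit receptor, at 24.7 and 45.5 CPM (−0.77). Over the homing list 8 of 13 measured members were above 0, with a median of 0.16. Over all genes in this comparison 71.2% were above 0, with a median of 0.12. Of the TGF-beta response list 6 of 6 measured members were above 0, with a median of 0.49, and Cd9, a tetraspanin, was at 454 and 320 CPM (0.50).

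Growth genes were mostly lower in cluster 4 than in the other spleen singlets. Of 13 measured genes for MYC and nucleolar growth 11 were below 0, with a median of −0.20, and Npm1, which encodes nucleophosmin, was at 540 and 766 CPM (−0.50). Metabolic lists were close to the rest, with a median of 0.01 for 29 oxidative phosphorylation genes and of −0.06 for 12 glycolysis genes. In fasted against ad libitum cells of cluster 4, MHC class I and antigen processing genes were below 0 in 10 of 12 cases, with a median of −0.19 beside −0.13 in the other singlets. H2-K1 was at 3240 CPM in fasted and 3495 CPM in ad libitum cells (−0.11).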
